A study of Rattus norvegicus with 12 samples.

Results

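The 10 genes Egfr, Erbb2, Erbb3, Met, Hgf, Egf, Tgfa, Areg, Ereg and Hbegf were followed through chemically induced liver carcinogenesis in the rat. They were chosen by name, with earlier results of these data known. Every probe set annotated to exactly one of these symbols was used, which gave 13 of the 31042 probe sets tested. Egfr had 3 probe sets and Tgfa had 2. Liver RNA of adult male Sprague-Dawley rats had been hybridised to 12 Affymetrix expression arrays, 3 in each of 4 groups. Control rats were injected with distilled water, and no source used here gives the time of their sacrifice. The hepatitis, cirrhosis and hepatocellular carcinoma (HCC) groups were put on intraperitoneal diethylnitrosamine (DEN), a liver carcinogen that hepatocytes activate. The schedule was 70 mg/kg weekly for a course of 10 weeks. Livers labelled hepatitis were taken when week 5 of the DEN schedule ended, before the course was complete. Those labelled cirrhosis were taken at week 13 or 14, and those labelled HCC at week 23 or 24. Stage therefore cannot be told apart from time since the first dose, the number of doses or the time since dosing. The labels call every sample liver and do not say whether the HCC samples were dissected nodules, nor that each array came from a separate rat, so p describes the spread among these arrays, which may be technical. Signals are the deposited array intensities, and differences are given as log2(intensity + 16), which understates the change of dim probe sets. A probe set is said to have risen or fallen, or is called, where limma's adjusted p over all 31042 probe sets was below 0.05.

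Epidermal growth factor (Egf) and hepatocyte growth factor (Hgf) are the ligands of the receptor tyrosine kinases Egfr and Met. Egfr, Erbb2 and Erbb3 are members of the ErbB receptor family, which signal as pairs. Egf, transforming growth factor alpha (Tgfa), amphiregulin (Areg), epiregulin (Ereg) and heparin-binding Egf-like growth factor (Hbegf) are made as membrane-anchored precursors and bind Egfr. Hgf is secreted as an inactive single chain, in the liver mainly by stellate and endothelial cells, and must be cut by a protease before it activates Met on hepatocytes. Both systems drive hepatocyte proliferation during liver regeneration.

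The promoter windows of the 3 members that fell in HCC against control are shown because these genes moved the same way in that comparison. Each is the 250 bases before the annotated start in the rat build GRCr8, from RefSeq, written 5′ to 3′ on the gene's strand, with the one motif match found in capitals.
Egfr (chr14:95378376-95378625, + strand): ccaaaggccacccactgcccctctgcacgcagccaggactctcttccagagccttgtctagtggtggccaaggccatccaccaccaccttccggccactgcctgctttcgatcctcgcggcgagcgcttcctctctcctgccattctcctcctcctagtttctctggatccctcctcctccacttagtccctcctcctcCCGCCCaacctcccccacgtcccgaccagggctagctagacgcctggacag
Hgf (chr4:19700468-19700717, - strand): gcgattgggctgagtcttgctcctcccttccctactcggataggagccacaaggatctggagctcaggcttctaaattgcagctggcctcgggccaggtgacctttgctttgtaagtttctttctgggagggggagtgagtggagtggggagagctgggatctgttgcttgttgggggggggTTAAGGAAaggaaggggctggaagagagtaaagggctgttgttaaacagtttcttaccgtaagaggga
Egf (chr2:220976298-220976547, - strand): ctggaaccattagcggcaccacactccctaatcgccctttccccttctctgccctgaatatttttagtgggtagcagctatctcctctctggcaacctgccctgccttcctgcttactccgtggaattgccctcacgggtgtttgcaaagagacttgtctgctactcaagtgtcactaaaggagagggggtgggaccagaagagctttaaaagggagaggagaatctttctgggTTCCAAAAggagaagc
The windows were searched on both strands for the GC box (GGGCGG), the TATA box (TATAAA), the AP-1 motif (TGANTCA) and the C/EBP motif (TTNCNNAA). The Egfr window had a GC content of 63.6% and a GC box match beginning 51 bases before the start (base -51). The Hgf window, with a GC content of 54.0%, had a C/EBP match at base -68. The Egf window, with a GC content of 51.6%, had a C/EBP match at base -16. Over all 27457 RefSeq promoters of that length the median GC content was 52.0%, and the GC box occurred in 32.4%, the C/EBP motif in 36.8%, the TATA box in 13.1% and the AP-1 motif in 6.36%. A match describes letters only, not a bound site. Of the 10 members 8 had a window in the table. Among the remaining 5, Erbb2 (GC content 69.2%) and Tgfa (74.4%) each held a GC box, Areg (54.4%) held a GC box and a TATA box, and Met (42.0%) and Hbegf (67.6%) held none of the motifs.

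The 12 arrays had median intensities between 28.6 and 30.9, and between 33.9% and 35.8% of their values lay under 16. HCC arrays differed most from the rest. A principal component with 58.6% of the variance placed HCC replicates 1, 2 and 3 at 86.8, 45.1 and 96.1, with all other arrays between -29.5 and -12.0, so that HCC replicate 2 lay closest to the rest. Pairs of HCC arrays correlated at 0.951 to 0.965 across probe sets, and pairs within the other groups at 0.985 or above. The 3′ minus 5′ signal of the Gapdh control probe sets, a sign of RNA integrity, was 1.36, 2.46 and 3.20 log2 units on the HCC arrays and 0.38 to 1.03 on the others. The summed intensity of 7 hepatocyte markers was 38094, 51091 and 36746 on the HCC arrays, against 48082 to 48663 in control, so all samples carried strong hepatocyte signal. The brightest markers weigh most in that sum, as Alb reached 15006 and Tat 526. Of the 7 markers 2 fell and 0 rose in HCC against control, where 18.2% of all genes fell and 19.1% rose. Their median difference was -0.34 log2 units, against 0.0073 over all genes. Control arrays differed in composition too. The summed intensity of 5 skeletal muscle markers was 1802 on control replicate 2, against 37.3 and 55.7 on control replicates 1 and 3 and 38.4 to 60.6 in the other groups. That of 6 macrophage and Kupffer cell markers was 6895 on control replicate 3, against 3769 and 3218 on control replicates 1 and 2. In whole tissue, fewer cells of a type and less RNA per cell cannot be told apart. The part that RNA integrity and cell composition have in the differences between groups was not tested.

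In HCC livers Egfr, Egf and Hgf fell below control, and Hbegf rose. The Hbegf call was near the threshold (adjusted p = 0.0471) and was lost under quantile normalisation and median centring. Of the 13 probe sets 5 fell and 1 rose in HCC against control, where 14.1% of all probe sets fell and 15.7% rose (29.8% in either direction). The 5 that fell were the 3 of Egfr, the one of Egf and the one of Hgf. The median difference of the 13 probe sets was -0.25 log2 units, and that over all 14217 genes was 0.0073. At the hepatitis and cirrhosis stages the fit of all 12 arrays called a single member against control, Hgf, which rose at both. At hepatitis 1.42% of all probe sets rose and 1.53% fell (2.95% in either direction), and at cirrhosis 1.59% rose and 2.04% fell (3.62%). That fit takes 1 spread per probe set over the 4 groups, and the median spread was 0.144 log2 units in HCC and 0.0652 in cirrhosis. A fit of the cirrhosis and control arrays alone called 4949 of all probe sets. They included Egfr 1370830_at, which rose (0.53, adjusted p = 0.0156), and Egf and Tgfa 1381449_s_at, which fell (-0.40 and -0.33, adjusted p = 0.0441 and 0.0069). The Hgf call at hepatitis was lost in a fit of the hepatitis and control arrays alone (adjusted p = 0.0553). Where all 3 arrays of a group are said to lie beyond those of another, the share of all probe sets that did so is the background. Above control it was 12.8% at hepatitis, 16.3% at cirrhosis and 20.9% in HCC, and below control 14.7%, 17.9% and 19.2%. In HCC it was 22.7% above and 20.8% below cirrhosis, and 20.2% above and 17.2% below hepatitis, and in cirrhosis 12.2% above and 11.3% below hepatitis. The 3 comparisons use the same 3 control arrays. The plot of differences from control shows the 13 probe sets at the 3 stages.

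**Figure D1:**
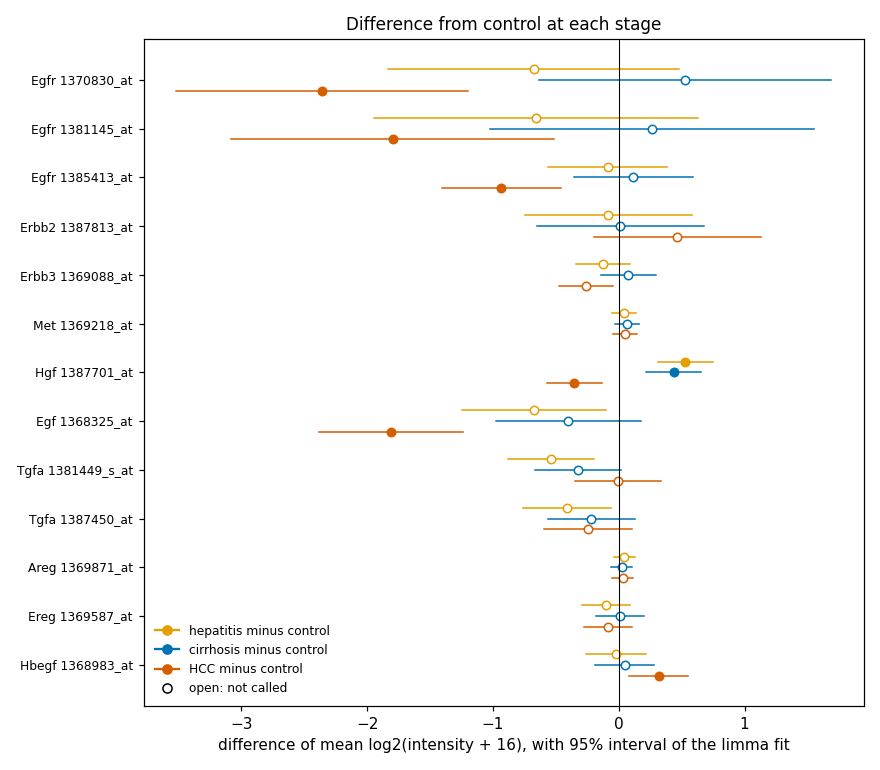
Difference of each stage from control for the 13 probe sets (horizontal axis, mean log2(intensity + 16) of the stage minus that of control), with the 95% interval of the limma fit and filled points where adjusted p was below 0.05. Hgf is filled to the right of 0 at hepatitis and cirrhosis and to the left in HCC, and the 3 Egfr probe sets and Egf are filled to the left in HCC.

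Egfr, the receptor for Egf, Tgfa and the other members' ligands, is abundant on normal hepatocytes. On its probe set 1370830_at the intensities were 439, 375 and 392 in control, 187, 330 and 237 in hepatitis, 599, 645 and 518 in cirrhosis, and 51.8, 202 and 20.2 in HCC. The 3 HCC arrays differed widely from each other. Replicates 1 and 3 lay below every other array, and replicate 2, the highest, lay between hepatitis replicates 1 and 3. Against control the HCC difference was -2.36 ± 0.52 log2 units (SE, adjusted p = 0.00754), a 5.13-fold drop on the offset scale. Against cirrhosis it was -2.89 ± 0.52 (adjusted p = 0.00236), a 7.40-fold drop, and against hepatitis -1.68 ± 0.52 (adjusted p = 0.0352).

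The other Egfr probe sets gave the same order of stages. On 1381145_at the intensities were 1049, 805 and 932 in control, 437, 732 and 605 in hepatitis, 1137, 1205 and 1001 in cirrhosis, and 183, 830 and 101 in HCC. Here HCC replicate 2 lay within the control range while replicates 1 and 3 lay below every other array. On 1385413_at they were 60.2, 70.0 and 66.8 in control, 49.3, 67.8 and 66.7 in hepatitis, 78.1, 70.8 and 68.4 in cirrhosis, and 27.2, 44.4 and 13.8 in HCC, and all 3 HCC arrays lay below the other 9. The HCC differences from control were -1.80 ± 0.57 (adjusted p = 0.0403) and -0.94 ± 0.21 log2 units (adjusted p = 0.00865), and those from cirrhosis were -2.06 ± 0.57 (adjusted p = 0.0212) and -1.05 ± 0.21 (adjusted p = 0.00434). Against hepatitis 1385413_at fell by 0.85 log2 units (adjusted p = 0.0139), and the difference of 1381145_at was -1.14 with an interval from -2.43 to 0.15 (adjusted p = 0.176).

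The size of the Egfr change rested on HCC replicates 2 and 3. Without replicate 2 the 3 probe sets differed from control by -3.07, -2.62 and -1.19 log2 units, with adjusted p of 5.76e-05, 8.89e-05 and 0.000508. Without replicate 3 they differed by -1.78, -1.19 and -0.68, with adjusted p of 0.0146, 0.117 and 0.0118. The call of 1381145_at against control held when HCC replicate 2 was left out and was lost when any other single array was (adjusted p of 0.0515 to 0.117). That of 1370830_at against hepatitis likewise held without HCC replicate 2 only. The call of 1381145_at against cirrhosis was lost without cirrhosis replicate 1 or 2, without HCC replicate 1 or 3 (adjusted p of 0.0593 to 0.0631) and in a fit of those groups alone (adjusted p = 0.106). The calls of 1370830_at and 1385413_at against control and against cirrhosis held in all 12 leave-one-out fits. In a fit of the HCC and control arrays alone the 3 calls against control were lost (adjusted p of 0.0663, 0.164 and 0.0659). Before HCC no Egfr probe set was called against control in the fit of all 12 arrays. For 1370830_at the hepatitis difference from control was -0.68 (interval -1.83 to 0.48) and the cirrhosis difference 0.53 (interval -0.63 to 1.68), although all 3 hepatitis arrays lay below and all 3 cirrhosis arrays above the 3 control arrays. The spread behind these intervals includes the HCC arrays. In a fit of the cirrhosis and control arrays alone the cirrhosis rise of 1370830_at was called (adjusted p = 0.0156).

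Erbb3, a receptor with little kinase activity of its own that binds neuregulins, had intensities of 31.2, 29.4 and 25.9 in control, 23.7, 22.4 and 29.5 in hepatitis, 35.6, 28.0 and 30.5 in cirrhosis, and 26.0, 18.0 and 20.7 in HCC. It fell in HCC against cirrhosis by 0.34 log2 units (adjusted p = 0.0245), a call lost without HCC replicate 2 (adjusted p = 0.0678) and without 3 other single arrays (adjusted p up to 0.0920). The difference from control was -0.26 ± 0.10 with an adjusted p of 0.0709, and of 0.0371 and 0.0426 under median centring and quantile normalisation. Erbb2, which has no known ligand and pairs with the other receptors, read 21.8, 21.6 and 23.1 in control, 21.9, 19.2 and 18.9 in hepatitis, 24.5, 21.8 and 21.3 in cirrhosis, and 82.0, 19.5 and 25.9 in HCC. HCC replicate 1 was far above the other 11 arrays, and the HCC difference from control was 0.46 with an interval from -0.20 to 1.13 (adjusted p = 0.285).

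Met, the Hgf receptor, was between 7.81 and 10.1 on all 12 arrays, under 16 on each of them. Its differences from control were 0.04, 0.07 and 0.05 log2 units at hepatitis, cirrhosis and HCC, none of them called, and the HCC difference was -0.0021 with each array centred on its median. At this level the probe set gives no measure of how much Met these livers expressed, and a change in Met was not detectable.

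**Figure D2:**
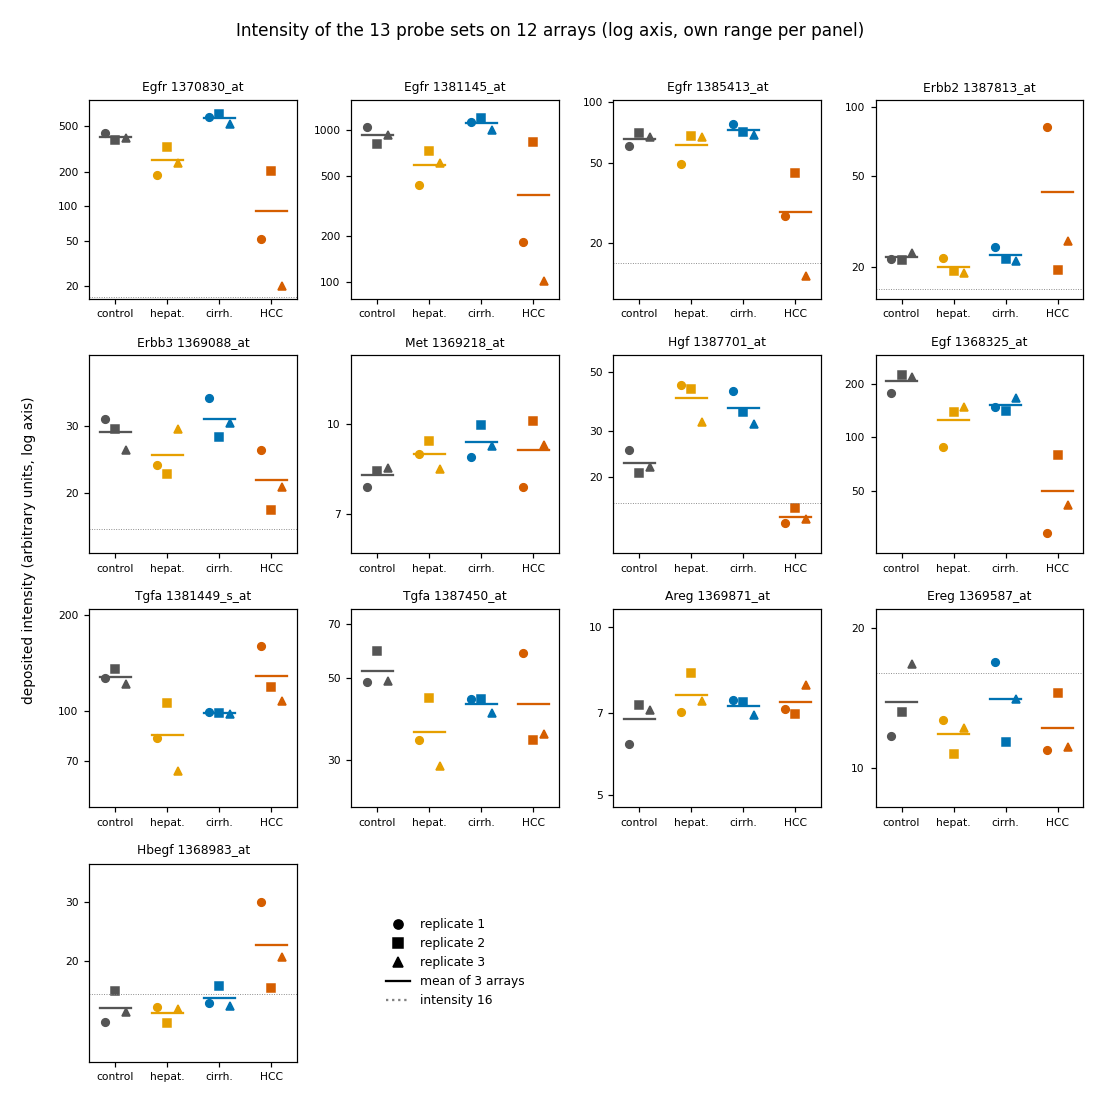
Deposited intensity of each of the 13 probe sets (vertical log axis, with its own range in each panel) on the 12 arrays by stage from control to HCC, with replicates 1, 2 and 3 as circle, square and triangle, the mean of 3 arrays as a bar, and intensity 16 as a dotted line where it falls in range. HCC replicate 2 (square) lies nearest the other stages for Egfr and Egf, and the 3 HCC arrays of Hgf lie under the dotted line.

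Hgf moved in opposite directions before and at HCC. Its intensities were 25.2, 20.8 and 21.9 in control, 44.6, 43.2 and 32.2 in hepatitis, 42.2, 35.2 and 31.7 in cirrhosis, and 13.5, 15.3 and 13.9 in HCC. Every hepatitis and cirrhosis array lay above every control array, and every HCC array lay below, under 16. Hgf rose in hepatitis by 0.53 ± 0.10 log2 units (adjusted p = 0.0229), with means of 40.0 ± 6.8 in hepatitis and 22.6 ± 2.3 in control (SD, n = 3 each), and in cirrhosis by 0.44 ± 0.10 (adjusted p = 0.0435), with a cirrhosis mean of 36.4 ± 5.3.

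In HCC Hgf differed from control by -0.35 ± 0.10 log2 units (adjusted p = 0.0225), from cirrhosis by -0.79 ± 0.10 (adjusted p = 0.000351) and from hepatitis by -0.88 ± 0.10 (adjusted p = 0.000235). As all 3 HCC arrays read under 16, where signal is weak, the sizes of these 3 differences are uncertain. The calls against cirrhosis and hepatitis held in all 23 alternative fits, and the hepatitis and cirrhosis stages did not differ (-0.09, interval -0.31 to 0.13, adjusted p = 0.884). The comparisons with control were less firm. The hepatitis call was lost without each control array and without hepatitis replicates 1 and 2 (adjusted p of 0.0578 to 0.0967). It was also lost in a fit of the hepatitis and control arrays alone (adjusted p = 0.0553). The cirrhosis call was lost without each control array, each cirrhosis array and hepatitis replicate 2 (adjusted p of 0.0553 to 0.154), and with an offset of 64 (adjusted p = 0.0631). The HCC call was lost without control replicates 1 and 3 and HCC replicates 1 and 3 (adjusted p of 0.0502 to 0.0803). It was also lost with array weights (adjusted p = 0.12) and with an offset of 64 (-0.15, adjusted p = 0.0584).

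Markers of the cells that make Hgf also differed between the stages. The summed intensity of 8 stellate cell and myofibroblast markers was 1077 to 1385 in control, 1308 to 1932 in hepatitis, 1191 to 1274 in cirrhosis and 1688 to 3196 in HCC. Within that list Lrat, the retinoid-storing enzyme of quiescent stellate cells, fell in HCC by 2.74 log2 units against control, while 4 markers, the matrix genes Col1a1 and Dcn, the contractile gene Acta2 and the receptor gene Pdgfrb, rose. The sum of 5 endothelial markers was 2110 to 2477 in control, 1481 to 2429 in hepatitis, 1743 to 1964 in cirrhosis and 428 to 1087 in HCC, where the sinusoidal markers Stab2 and Lyve1 and the receptor gene Kdr fell. Their part in the Hgf differences was not tested.

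Egf, the founding ligand of Egfr, had intensities of 177, 223 and 218 in control, 88.7, 139 and 147 in hepatitis, 148, 140 and 167 in cirrhosis, and 29.2, 79.6 and 41.9 in HCC. All 3 HCC arrays lay below the other 9, and all hepatitis and cirrhosis arrays lay below the 3 control arrays. Egf fell in HCC by 1.81 ± 0.26 log2 units against control (adjusted p = 0.00084), a 3.50-fold drop on the offset scale, with means of 50.2 ± 26.2 in HCC and 205.9 ± 25.2 in control (SD, n = 3 each).

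Egf also fell in HCC against cirrhosis by 1.41 ± 0.26 log2 units (adjusted p = 0.00261) and against hepatitis by 1.13 ± 0.26 (adjusted p = 0.00886). The first of these and the call against control held in all 23 alternative fits. The hepatitis and cirrhosis differences from control were -0.68 (interval -1.25 to -0.10, adjusted p = 0.226) and -0.40 (interval -0.98 to 0.17, adjusted p = 0.527), and were not called. With weights that give less to deviant arrays, the hepatitis difference was -0.72 with an adjusted p of 0.0311. In a fit of the cirrhosis and control arrays alone the cirrhosis difference was called (adjusted p = 0.0441).

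Tgfa, a second high-affinity Egfr ligand, was measured by a pair of probe sets. On 1381449_s_at the intensities were 127, 136 and 122 in control, 82.4, 106 and 65.3 in hepatitis, 99.6, 98.7 and 98.4 in cirrhosis, and 160, 119 and 108 in HCC. The HCC arrays were above all 3 hepatitis arrays, a rise of 0.53 ± 0.15 log2 units (adjusted p = 0.0272), and HCC and control overlapped (-0.01, interval -0.35 to 0.33). On 1387450_at they were 48.8, 59.2 and 49.2 in control, 33.9, 44.2 and 28.9 in hepatitis, 43.8, 43.8 and 40.2 in cirrhosis, and 58.4, 34.0 and 35.3 in HCC. There the difference of HCC from hepatitis was 0.17 (interval -0.18 to 0.51, adjusted p = 0.482), so the probe sets disagree on that call. The hepatitis differences from control were -0.54 (adjusted p = 0.106) and -0.41 (adjusted p = 0.221), with every hepatitis array below every control array on both. With array weights, which called 3468 of all probe sets there, both were called (adjusted p = 0.0217 and 0.0423). The cirrhosis differences from control were -0.33 (adjusted p = 0.332) and -0.22 (adjusted p = 0.583). That of 1381449_s_at was called with array weights (adjusted p = 0.0472) and in a fit of the cirrhosis and control arrays alone (adjusted p = 0.0069). The call against hepatitis on 1381449_s_at held in 9 of the 12 leave-one-out fits, and with the mean of both probe sets the difference was 0.35 (adjusted p = 0.104).

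Hbegf, an Egfr ligand that binds heparan sulphate and is induced early in regenerating liver, read 13.2, 16.3 and 14.1 in control, 14.6, 13.1 and 14.5 in hepatitis, 15.0, 17.0 and 14.7 in cirrhosis, and 30.1, 16.7 and 20.6 in HCC. It was under 16 on 7 of the 12 arrays. It rose in HCC against control by 0.32 ± 0.11 log2 units (adjusted p = 0.0471) and against hepatitis by 0.34 ± 0.11 (adjusted p = 0.0365). The call against control was kept in 1 of 12 leave-one-out fits, that without HCC replicate 2 (0.43, adjusted p = 0.00612), and was lost under median centring (0.26, adjusted p = 0.0832) and quantile normalisation (0.28, adjusted p = 0.0748). Without HCC replicate 1 the difference from control was 0.18 (adjusted p = 0.0698). The call against hepatitis was kept in 3 of 12 leave-one-out fits and was lost under median centring (adjusted p = 0.0594) and quantile normalisation (adjusted p = 0.0622). Without HCC replicate 1 that difference was 0.20 (adjusted p = 0.0448).

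Areg and Ereg, low-level Egfr ligands in resting tissue, did not change in any of the 6 comparisons. Areg read 6.16 to 8.29 over the 12 arrays, under 16 on all of them. Ereg read 10.7 to 16.9, under 16 on 10 of the 12. A change in either was not detectable at this signal.

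Compared with the preceding stages, HCC livers again had lower Egfr, Egf and Hgf. Of the 13 probe sets 6 fell and 0 rose in HCC against cirrhosis, where 14.8% of all probe sets fell and 17.5% rose (32.2% in either direction). The 6 were the 3 of Egfr and those of Egf, Hgf and Erbb3. Before adjustment limma put 1 member higher, Hbegf, below 0.05 (0.27, adjusted p = 0.0792). Against hepatitis 4 fell, namely 2 of Egfr and those of Egf and Hgf, and 2 rose, Hbegf and a Tgfa probe set, where 13.4% of all probe sets fell and 15.5% rose (29.0% in either direction). In cirrhosis against hepatitis limma called 0 of the 13, where 0.29% of all probe sets rose and 0.361% fell (0.651%). Before adjustment limma put 1 of them below 0.05, Egfr 1370830_at (1.20, adjusted p = 0.449). Under array weights that difference was 1.22 with an adjusted p of 0.0478.

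The wider pathway was read from 84 measured genes in 7 lists, each gene by its brightest probe set. These lists were compiled from general knowledge of both pathways, with earlier results of these data known. The shares called are therefore a description beside the background. In HCC against control 24 of the 84 genes rose and 13 fell, where 19.1% of all genes rose and 18.2% fell. In hepatitis against control 7 rose and 2 fell (1.72% and 2.0% of all genes), and in cirrhosis against control 4 rose and 2 fell (1.65% and 1.99%). The plot of the 7 lists shows the HCC differences.

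**Figure D3:**
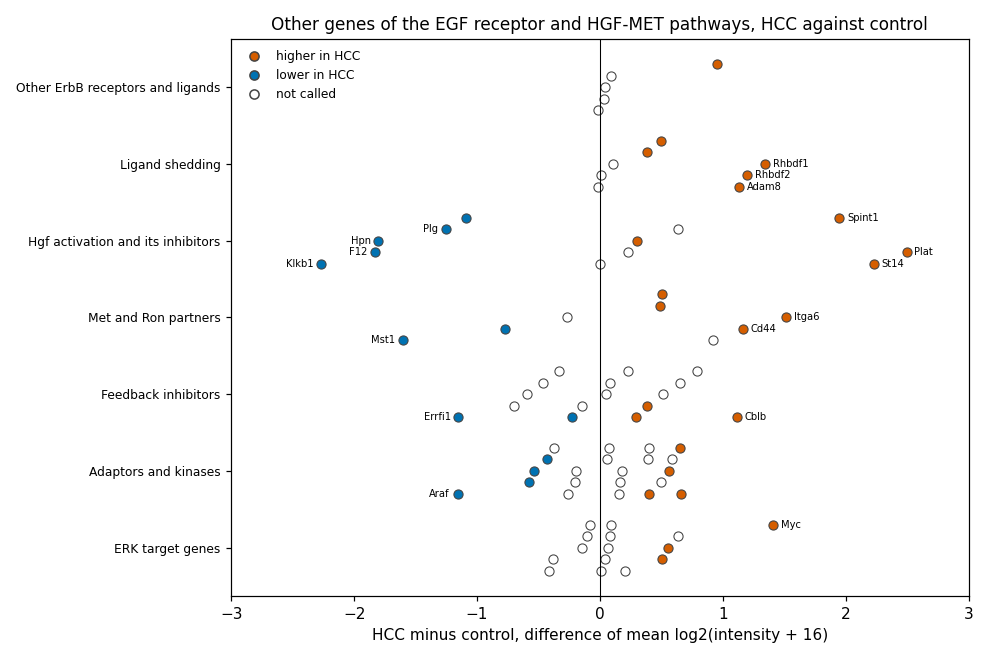
Difference of HCC from control (horizontal axis, mean log2(intensity + 16) of HCC minus that of control) for 84 genes in 7 lists, 1 point a gene, coloured where adjusted p was below 0.05 and labelled where the difference also exceeded 1.1 in size. In the Hgf activation list Klkb1, F12, Hpn and Plg lie far to the left and Plat, St14 and Spint1 far to the right.

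The genes that activate Hgf split in HCC. Of 12 measured genes in the list of Hgf activation and its inhibitors 5 fell and 4 rose in HCC against control, with a list median of 0.12 log2 units, and none was called at hepatitis or cirrhosis. The 5 that fell are secreted or membrane proteases of the hepatocyte. They were Klkb1 (plasma prekallikrein), F12 (coagulation factor XII), Hpn (hepsin), Plg (plasminogen) and Hgfac, the Hgf activator itself. Plg, Hgfac and Serpina5 lie outside the rule of naming up to 4 genes a list and comparison and were named after their values were seen.

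Klkb1 had intensities of 2676, 2333 and 2335 in control, 1326, 2121 and 1196 in hepatitis, 1601, 1574 and 1479 in cirrhosis, and 287, 1446 and 285 in HCC. F12 had 3076, 3065 and 2794 in control, 2610, 2735 and 3329 in hepatitis, 2890, 2803 and 2696 in cirrhosis, and 452, 2722 and 447 in HCC. As with Egfr, HCC replicate 2 kept near the level of earlier stages while replicates 1 and 3 were far below.
The HCC differences from control were -2.27 ± 0.52 for Klkb1 (adjusted p = 0.0093), -1.83 ± 0.56 for F12 (adjusted p = 0.0328), -1.80 ± 0.32 for Hpn (adjusted p = 0.00244), -1.25 ± 0.32 for Plg (adjusted p = 0.0165) and -1.09 ± 0.24 for Hgfac (adjusted p = 0.00717). Hgfac had 593, 853 and 454 on the HCC arrays, against 1278 to 1393 in control. The F12 call was lost without each control array, HCC replicate 1 and HCC replicate 3. Without HCC replicate 2 the differences were -3.03 for Klkb1 (adjusted p = 1.26e-05), -2.68 for F12 (adjusted p = 5.53e-07) and -2.20 for Hpn (adjusted p = 0.000111).

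Genes of the opposite direction were Plat (tissue plasminogen activator), St14 (matriptase, a membrane protease of epithelia that cuts Hgf), and the inhibitors Spint1, which blocks the Hgf activator and matriptase, and Serpina5. Plat had intensities of 33.3, 36.5 and 37.9 in control, 190, 67.6 and 70.8 in hepatitis, 63.0, 65.2 and 62.4 in cirrhosis, and 494, 217 and 195 in HCC. All 3 HCC arrays lay above the other 9, and the HCC difference from control was 2.50 ± 0.38 (adjusted p = 0.00118). St14 had 1013, 93.7 and 178 on the HCC arrays, against 39.7, 32.3 and 62.6 in control, a difference of 2.23 ± 0.67 (adjusted p = 0.0306) lost without any single control array. Spint1 had 233, 23.9 and 79.5 in HCC, against 8.70, 8.31 and 11.5 in control, a difference of 1.95 ± 0.51 (adjusted p = 0.0176) lost without control replicate 1 or 2. Without HCC replicate 1 the differences were 1.29 for St14 and 1.28 for Spint1. Both were highest in HCC replicate 1, where the summed intensity of 5 cholangiocyte and ductular markers was 5791, against 339 and 1064 in the other HCC arrays and 219 to 239 in control. The part of ductular cells in these differences was not tested.

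**Figure D4:**
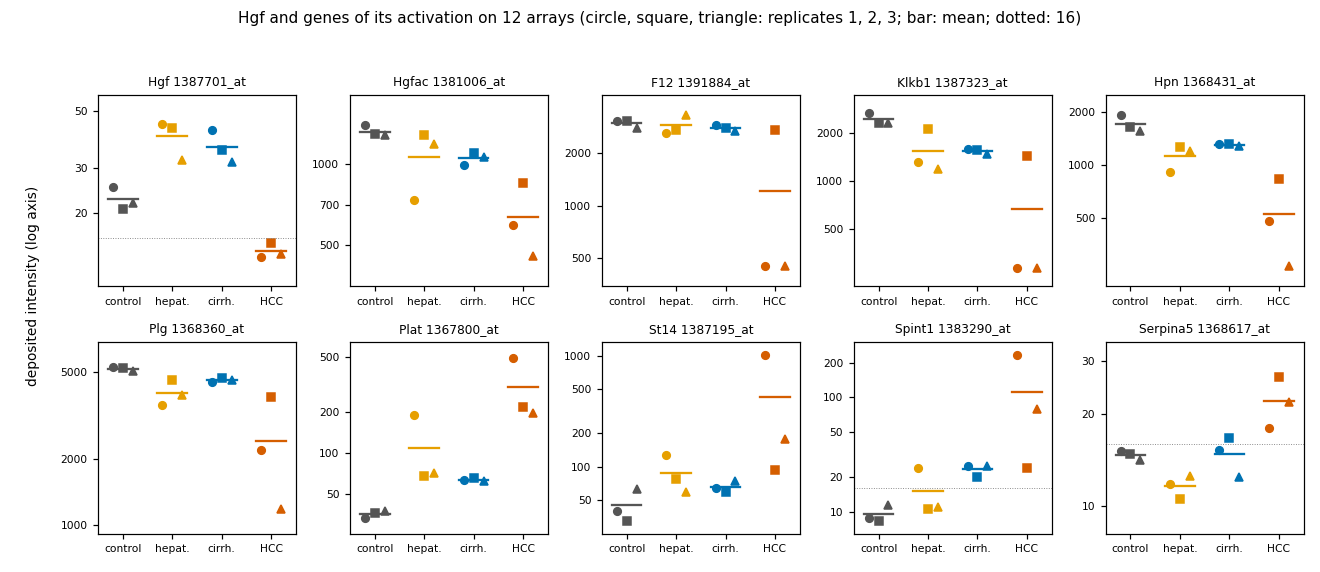
Deposited intensity (vertical log axis, own range in each panel) of Hgf and 9 genes of its activation on the 12 arrays by stage, with replicates 1, 2 and 3 as circle, square and triangle and the mean as a bar. For F12 and Klkb1 HCC replicate 2 (square) lies with the earlier stages, and for St14 and Spint1 HCC replicate 1 (circle) is the highest array.

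Among 8 measured genes of ligand shedding 5 rose and 0 fell in HCC against control, with a median difference of 0.44 log2 units, against 0.0073 over all genes. The 5 were the metalloproteases Adam8 and Adam15, Rhbdf1 and Rhbdf2, which encode the iRhom partners that the sheddase Adam17 needs to mature, and Timp3, an inhibitor of Adam17 and so the opposite of a sheddase. Rhbdf1 had 274, 238 and 157 on the HCC arrays, against 88.9, 70.7 and 69.3 in control, and rose by 1.34 ± 0.18 (adjusted p = 0.00057). Its HCC arrays lay above all other arrays. Rhbdf2 rose by 1.20 ± 0.27 (adjusted p = 0.00837). The calls of Adam8, Adam15, Rhbdf1 and Rhbdf2 held in all 12 leave-one-out fits, and that of Timp3 (0.50, adjusted p = 0.0331) was lost without control replicate 1, control replicate 2 or HCC replicate 2.

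Adam8, a metalloprotease of leukocytes, peaked at hepatitis. Its intensities were 19.2, 19.9 and 22.8 in control, 2524, 1439 and 1586 in hepatitis, 140, 103 and 85.6 in cirrhosis, and 94.1, 42.9 and 63.6 in HCC. The difference from control was 5.63 ± 0.26 log2 units at hepatitis (adjusted p = 3.05e-05), a 49.4-fold rise on the offset scale, then 1.76 ± 0.26 at cirrhosis (adjusted p = 0.011) and 1.13 ± 0.26 in HCC (adjusted p = 0.00991). The cirrhosis call was lost without cirrhosis replicate 1 or 2. With the mean of its probe sets the differences were 2.80, 0.86 and 0.54, all called. Summed markers of mast cells and neutrophils were 821 to 1324 in hepatitis, 574 to 1119 in cirrhosis and 293 to 533 in HCC, against 184 to 292 in control, and their part in the Adam8 difference was not tested.

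Of 5 further measured ErbB receptors and ligands, Nrg1, a neuregulin that binds Erbb3 and Erbb4, rose at each stage. Its intensities were 25.2, 44.4 and 24.1 in control, 131, 128 and 104 in hepatitis, 77.6, 98.1 and 86.4 in cirrhosis, and 64.6, 88.4 and 69.8 in HCC. Every treated array lay above every control array. The differences from control were 1.56 ± 0.17 at hepatitis (adjusted p = 0.00189), 1.15 ± 0.17 at cirrhosis (adjusted p = 0.0097, lost without cirrhosis replicate 2) and 0.95 ± 0.17 in HCC (adjusted p = 0.00243). With the mean of its probe sets the differences were 0.50, 0.35 and 0.21, all called. In HCC Nrg1 was lower than in hepatitis, by -0.61 ± 0.17 (adjusted p = 0.0217), a call lost without hepatitis replicate 1 or 2 or HCC replicate 1 or 3.

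Of 8 Met and Ron partners 4 rose and 2 fell in HCC against control, with a list median of 0.50. Those that rose were the integrin subunit Itga6 (1.52 ± 0.28, adjusted p = 0.00319), the hyaluronan receptor Cd44, a co-receptor of Met (1.17 ± 0.27, adjusted p = 0.00978), the semaphorin receptor Plxnb1 and the Met-binding Ranbp9. Itga6 had 241, 342 and 430 on the HCC arrays, above the 85.8 to 123 of the control arrays. Mst1, the macrophage-stimulating protein that hepatocytes secrete as ligand of the Met relative Ron, fell to 180, 600 and 183 in HCC, against 896, 892 and 801 in control (-1.61 ± 0.36, adjusted p = 0.00836; -2.15 without HCC replicate 2). Ranbp10 fell by 0.78 (adjusted p = 0.000362). These 6 calls held in all 12 leave-one-out fits. With the mean of a gene's probe sets the difference was 0.39 for Itga6 (adjusted p = 0.0104) and 0.18 for Plxnb1 (adjusted p = 0.0482). At hepatitis Plxnb1 (0.69, adjusted p = 0.0127) and Ranbp9 (0.51, adjusted p = 0.0295) had risen, and the Ranbp9 call was lost in 7 of the 12 leave-one-out fits.

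Of 16 feedback inhibitors 3 rose and 2 fell in HCC against control. Errfi1, which binds and blocks the Egfr kinase, had 1454, 2807 and 1084 on the HCC arrays, against 3731, 3873 and 3424 in control, a difference of -1.15 ± 0.33 (adjusted p = 0.0242) that was lost without any control array and without HCC replicates 1 and 3. Cblb, a ubiquitin ligase that marks activated receptors for degradation, had 215, 170 and 324 in HCC, against 92.2, 92.9 and 107 in control, and rose by 1.11 ± 0.17 (adjusted p = 0.00136). Socs5, which promotes Egfr degradation, rose against control at hepatitis (0.55, adjusted p = 0.0351), cirrhosis (0.51, adjusted p = 0.0412) and HCC (0.38, adjusted p = 0.0304), and each of these calls was lost in at least 4 of the 12 leave-one-out fits. With the mean of its probe sets the HCC difference was 0.15 (adjusted p = 0.216). Spry4 rose by 0.29 (adjusted p = 0.0258), a call lost without any control array, HCC replicate 1 or HCC replicate 2. Rnf41, a ubiquitin ligase for Erbb3, fell by 0.23 (adjusted p = 0.0161), a call lost without control replicate 1 or HCC replicate 3, under a trended robust fit (adjusted p = 0.101) and with the mean of its probe sets (-0.04, adjusted p = 0.573). Against hepatitis 5 of the 16 fell and 1 rose in HCC. Lrig3 had the largest of those differences, -1.35 ± 0.27 (adjusted p = 0.00505).

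Of 21 adaptors and kinases 4 rose and 4 fell in HCC against control. Araf, a kinase of the Raf family, was 194.9, 197 and 172 in control, 103, 102 and 138 in hepatitis, 111, 115 and 121 in cirrhosis, and 78.7, 81.7 and 66.5 in HCC. It fell at each stage, by 0.66, 0.63 and 1.16 log2 units (adjusted p = 0.0136, 0.017 and 0.000105), with the first 2 calls lost in 3 and 5 of the 12 leave-one-out fits. With the mean of its probe sets the differences were -0.24, -0.26 and -0.66, and the first 2 were not called (adjusted p = 0.092 and 0.0867). The adaptor Crk rose (0.65, adjusted p = 0.00146), but with the mean of its probe sets the difference was 0.098 (adjusted p = 0.361). Rasa1, which switches Ras off, rose (0.66, adjusted p = 0.0248), a call lost without any control array and in a fit of the HCC and control arrays alone (adjusted p = 0.132). Without HCC replicate 3 the Rasa1 difference was 0.38. The phosphatidylinositol 3-kinase subunit Pik3r1 fell (-0.57, adjusted p = 0.0119). Ptpn11 of this list fell in HCC against cirrhosis (-0.70, adjusted p = 0.00414) and against hepatitis (-0.87, adjusted p = 0.00154). Against control its HCC difference was -0.54, and -0.095 with the mean of its probe sets (adjusted p = 0.402).

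Of 15 ERK target genes 3 rose and 0 fell in HCC against control, with a list median of 0.06 against 0.0073 over all genes. Myc was 267, 208 and 336 in control, 133, 99.5 and 128 in hepatitis, 209, 279 and 176 in cirrhosis, and 1090, 592 and 609 in HCC. All 3 HCC arrays lay above the other 9. Myc rose in HCC by 1.41 ± 0.26 against control (adjusted p = 0.00317), by 1.68 against cirrhosis (adjusted p = 0.00109) and by 2.47 against hepatitis (adjusted p = 0.000186). Fosl2 rose by 0.55 against control (adjusted p = 0.000766), and both genes kept these calls in all 12 leave-one-out fits. With the mean of its probe sets the Fosl2 difference was 0.30. Etv4 rose by 0.51 (adjusted p = 0.0412), was under 16 on all control arrays, and kept the call in 3 of the 12. Its difference was 0.27 without HCC replicate 1 and 0.29 with the mean of its probe sets. Of the ERK targets Ier2 fell at hepatitis and cirrhosis against control (-0.74, adjusted p = 0.0207, and -0.64, adjusted p = 0.0342). Its hepatitis call was lost in 3 of 12 leave-one-out fits and in the fit of those groups alone (adjusted p = 0.0556), and its cirrhosis call in 5 of 12 and under the replicate block (adjusted p = 0.0559). Ccnd1, which encodes cyclin D1, fell in HCC against hepatitis (-0.94, adjusted p = 0.0162). The summed intensity of 5 proliferation markers was 572 to 1709 in HCC, against 180 to 365 in control, and its part in these differences was not tested.

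Between the later stages, 19 of the 84 pathway genes rose and 14 fell in HCC against cirrhosis, where 19.2% of all genes rose and 17.6% fell. Against hepatitis 16 rose and 19 fell (17.5% and 16.8% of all genes). In cirrhosis against hepatitis 0 rose and 2 fell, Adam8 (-3.87, adjusted p = 0.000501) and Plxnb1 (-0.93, adjusted p = 0.00706), where 0.309% of all genes rose and 0.521% fell. Scaling moved the split between rises and falls. With each array centred on its median, 41.9% of the called probe sets of the whole array rose in HCC against control, where 52.7% did without it, and of the called pathway genes 47.1% rose in HCC against cirrhosis, where 57.6% did.

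For the 4 members that changed against control, the genes with the most similar profile over the 12 arrays were found by Pearson correlation of log2(intensity + 16) among about 8430 genes, as a description of arrays that share the HCC contrast. Egfr was most like Plcb1 (r = 0.981), Il1rap (0.981) and Psenen (0.976). Hgf was most like Nat1 (0.978), Emc1 (0.947) and Pdk4 (0.945), which all were higher in hepatitis and cirrhosis than in control. Nat1 for example had 234, 307 and 175 in hepatitis, 222, 207 and 182 in cirrhosis and 42.2, 49.9 and 34.2 in HCC, against 101, 96.6 and 105 in control. Egf was most like Cyp1a2 (0.987), Slc17a2 (0.979) and Lrp3 (0.977). Cyp1a2, a cytochrome P450 of hepatocytes around the central vein, had 496, 1590 and 1118 in hepatitis, 2260, 1808 and 2181 in cirrhosis and 59.1, 421 and 148 in HCC, against 2902, 3025 and 3824 in control. Hbegf was most like Pcgf6 (0.985), Casp2 (0.971) and Fbxo45 (0.965), a likeness in which HCC replicate 1 is the highest array of each gene.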

How the data were processed

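The authors deposited 1 value table of the 12 arrays in linear intensities, with no log scale or detection call; MAS5 and RMA are listed, per the submitters' processing notes, without the role of either. No background correction or further normalisation was applied. After 57 control probe sets were left out, 31042 remained, of which 20826 carried 1 gene symbol, 436 several and 9780 none in the platform annotation; 13 symbols were not found in the RefSeq table. Values were taken as log2(intensity + 16) and fitted with limma 3.58.1 (R 4.3.3) over all 12 arrays and 4 groups, with 6 contrasts and Benjamini-Hochberg adjustment over all probe sets. Counts over genes use the brightest probe set of each of 14217 genes. The code was tested on simulated data. The number of arrays, the spread among the HCC arrays and signals near or under 16 limit the precision. No depth applies. The members and gene lists were chosen with earlier results of these data known. Up to 4 called genes were picked per list and comparison by size of change, and the text does not describe all of them. In HCC against cirrhosis it leaves out Egr1, Itgb4 and Plcg1, which rose, and Adam10, Dusp4 and Ptprj, which fell. Also left out are Spry1 and Stat3, which fell in HCC against hepatitis, and Socs3, which rose at hepatitis. The text names the 3 genes most like each changed member among those with a mean log2 of at least 6. No scan date or batch is given. Alternatives were quantile normalisation, median centring, offsets of 1 and 64, leaving out the dimmest 30% of probe sets, gene-level values, 2-group fits, a trended robust fit, array weights, a replicate block and leaving out each array. Genes without a single-gene probe set, such as Epgn, Nrg3 and Mst1r, were not analysed here.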

Additional observations from a re-analysis of the deposited data

Results flagged for a closer look

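These differences between stages were picked out because the effects of a pair of stages against the same controls had opposite signs and differed in limma's test of the contrast between them. For Egfr, the mean of HCC lay below that of control and the mean of cirrhosis above it. HCC against cirrhosis gave -2.89, -2.06 and -1.05 log2 units on 1370830_at, 1381145_at and 1385413_at. The cirrhosis differences from control on these probe sets were 0.53, 0.26 and 0.12, and none was called in the fit of all arrays (adjusted p of 0.736, 0.923 and 0.897). That of 1370830_at was called in a fit of the cirrhosis and control arrays alone (adjusted p = 0.0156). The contrast on 1370830_at was made up of -2.36 in HCC and 0.53 in cirrhosis, each against control. Erbb3 had the same signs on a smaller scale, with -0.34 in HCC against cirrhosis. Its differences from control were not called, at -0.26 in HCC (adjusted p = 0.0709) and 0.08 in cirrhosis (adjusted p = 0.822). For Hgf, HCC against cirrhosis gave -0.79 and HCC against hepatitis -0.88, from -0.35 in HCC and 0.44 and 0.53 at the 2 earlier stages. For Hbegf, HCC against hepatitis gave 0.34, and hepatitis itself differed from control by -0.02. That Hbegf call was lost in 9 of 12 leave-one-out fits and under both rescalings (adjusted p = 0.0594 and 0.0622), and the difference was 0.20 without HCC replicate 1. A call in limma's contrast between the stages was a condition of the choice. The adjusted p of these contrasts, between 0.000235 and 0.0365, are therefore no further test of them.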

How the results depend on the processing

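No called difference of the 10 members changed sign under any alternative run. In HCC against control and against cirrhosis, Egf held its call in all alternatives run, as did Hgf in HCC against cirrhosis and hepatitis. Fits of only the 2 groups compared gave called member probe sets of 0 at hepatitis, 4 at cirrhosis and 2 in HCC against control, and 1 in HCC against hepatitis, and called pathway genes of 22 at cirrhosis and 20 in HCC against control, 14 in HCC against cirrhosis and 13 in HCC against hepatitis. Array weights gave 4 member probe sets at hepatitis, 2 at cirrhosis and 1 in cirrhosis against hepatitis, and 16, 14 and 4 pathway genes in the same comparisons. An offset of 64 gave 0 member probe sets at cirrhosis, and averaging a gene's probe sets gave 3 pathway genes there and turned Crk in HCC against cirrhosis to -0.035 (adjusted p = 0.764). The cause of these shifts was not tested.

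With a single array left out, called member probe sets ranged over 0 to 2 at hepatitis, 0 to 1 at cirrhosis, 3 to 6 in HCC against control, 0 to 0 in cirrhosis against hepatitis, 4 to 6 in HCC against cirrhosis and 3 to 8 in HCC against hepatitis. Called pathway genes ranged over 3 to 11, 0 to 7, 27 to 43, 2 to 3, 16 to 39 and 20 to 44 in the same order. Calls over all probe sets moved as well. They ranged over 297 to 1652, 194 to 1884, 6642 to 10638, 63 to 439, 7611 to 11311 and 6698 to 10355 in that order. With all arrays they were 916, 1125, 9237, 202, 10008 and 8990. Same-numbered arrays of different groups correlated at -0.22 to 0.34 in their deviations, over 0.1 in 2 of 18 pairs, so the numbers were not taken as pairing. A replicate block called 8905 of all probe sets in HCC against control, where 9237 were called without it, and moved no count of called members or pathway genes by over 1.5 times. Under it Hbegf had an adjusted p of 0.0712 in HCC against control and 0.058 in HCC against hepatitis. Signals near or under 16 limit what can be said of Met, Areg, Ereg and Hbegf, and of Hgf in HCC. Over all probe sets, HCC against control gave 9237 calls, 4994 in the fit of only those groups and 7504 with array weights, and array weights gave 3468 at hepatitis, where 916 were called without them, and 4946 at cirrhosis, where 1125 were. Fits of only the groups compared gave 4949 calls at cirrhosis, 466 in cirrhosis against hepatitis, 6499 in HCC against cirrhosis and 3793 in HCC against hepatitis, where the fit of all arrays gave 1125, 202, 10008 and 8990. Array weights gave 1181 in cirrhosis against hepatitis, and the block gave 717 at cirrhosis and 133 in cirrhosis against hepatitis. Fits of only the groups compared also lost the HCC calls against control of Klkb1, Mst1, Cd44, Plxnb1, Rhbdf2, F12, St14, Spint1, Errfi1, Etv4, Ptpn11, Rasa1, Socs5, Spry4 and Timp3 among the named genes. Averaging a gene's probe sets lost those of Crk, Ptpn11, Rnf41 and Socs5.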
